A study of Mus musculus with 7 samples.

Results

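The linker histone H1 genes were followed in bulk RNA-seq of mouse testes enriched for preleptotene spermatocytes, the germ cells that stand between the last mitosis of spermatogonia and meiotic prophase. The 8 genes were chosen by name as members of the H1 family, with earlier results of these data known. The set comprises the replication-dependent *Hist1h1a*, *Hist1h1b*, *Hist1h1c*, *Hist1h1d* and *Hist1h1e*, the testis-specific *Hist1h1t*, and the replacement subtypes *H1f0* and *H1fx*. They are 8 of the 21928 genes matched in the deposited tables, and all 8 were among the 13630 genes that passed the filter on low values. The comparison was between 4 wild-type pups and 3 pups of the group labelled Meioc KO, called *Meioc*-null below, which carried the null allele *Meioc tm1.1Dpc* backcrossed to C57BL/6N. All pups of both groups received WIN 18,446, a blocker of retinoic acid synthesis, at 0.1 mg per g of body weight on P2 through P8, followed by retinoic acid at 0.0125 mg per g on P9, and testes were collected 6.75 days later. Each library held RNA of 1.5 whole testes of a single pup, so Sertoli, Leydig and other somatic cells were in the RNA along with the germ cells. Libraries were made after removal of ribosomal RNA with no step for poly(A) tails, and so they also cover mRNAs that end without a tail. Different spike-in mixes had been added to the wild-type and null samples and were not used.

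Linker histones bind the nucleosome where DNA enters and leaves it and help to compact chromatin. The replication-dependent H1 genes lie in the large histone cluster on chromosome 13 and are transcribed mainly in S phase, when new DNA is packaged. Their mRNAs end in a conserved hairpin in place of a poly(A) tail, and the hairpin is bound by the protein SLBP, which guides processing and translation. Replacement subtypes come from polyadenylated mRNAs that do not depend on replication. In the testis, *Hist1h1a* is known as a major H1 of spermatogonia, and the *Hist1h1t* protein accumulates later, in pachytene spermatocytes.

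All 8 genes have a single transcript in the deposited tables, with a single exon in GENCODE vM21. In GENCODE vM21 on GRCm38 they lie at chr13:23763666-23764406 (*Hist1h1a*, plus strand), chr13:21779883-21780625 (*Hist1h1b*, minus strand), chr13:23738808-23740367 (*Hist1h1c*, plus strand), chr13:23553262-23560686 (*Hist1h1d*, plus strand), chr13:23620629-23622558 (*Hist1h1e*, minus strand), chr13:23695814-23696725 (*Hist1h1t*, plus strand), chr15:79028450-79030504 (*H1f0*, plus strand) and chr6:87980421-87981637 (*H1fx*, minus strand). The 6 genes on chromosome 13 are shown with the 150 bases before their RefSeq start (GRCm38.p6), since 4 of them passed the test and the other two did not, and all 6 hold the CCAAT-type and TATA-type words, while the H1 box is missing from *Hist1h1a*. Capitals mark matches on the printed strand to the H1 box AAACACA, the CCAAT-type word CCAATCA and the TATA-type word TATANA, some of which overlap one another.
Hist1h1a, chr13:23763518-23763667, plus strand: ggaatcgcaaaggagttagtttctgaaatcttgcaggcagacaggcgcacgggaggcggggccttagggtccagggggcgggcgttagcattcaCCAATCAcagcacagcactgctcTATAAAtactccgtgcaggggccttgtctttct
Hist1h1b, chr13:21780626-21780775, minus strand: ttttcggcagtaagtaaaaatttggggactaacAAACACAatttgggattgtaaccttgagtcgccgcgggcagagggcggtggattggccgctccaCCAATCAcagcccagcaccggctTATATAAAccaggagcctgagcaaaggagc
Hist1h1c, chr13:23738657-23738806, plus strand: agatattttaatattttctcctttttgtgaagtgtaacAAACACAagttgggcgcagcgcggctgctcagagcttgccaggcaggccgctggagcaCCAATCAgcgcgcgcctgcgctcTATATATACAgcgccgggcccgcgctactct
Hist1h1d, chr13:23554882-23555031, plus strand: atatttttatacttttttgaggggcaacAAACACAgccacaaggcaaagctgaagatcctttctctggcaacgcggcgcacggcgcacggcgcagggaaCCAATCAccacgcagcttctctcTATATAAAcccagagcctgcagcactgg
Hist1h1e, chr13:23622559-23622708, minus strand: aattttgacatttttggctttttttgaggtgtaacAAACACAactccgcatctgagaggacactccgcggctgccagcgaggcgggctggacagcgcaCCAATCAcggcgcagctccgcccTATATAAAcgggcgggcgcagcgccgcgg
Hist1h1t, chr13:23695661-23695810, plus strand: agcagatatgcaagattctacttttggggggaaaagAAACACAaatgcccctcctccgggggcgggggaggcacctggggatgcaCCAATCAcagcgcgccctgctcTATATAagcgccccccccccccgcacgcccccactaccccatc

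The H1 box stood 112 to 122 bases before the start in *Hist1h1b*, *Hist1h1c*, *Hist1h1d*, *Hist1h1e* and *Hist1h1t*. *Hist1h1a*, the most abundant of the 8, had no match to it between 250 bases before and 50 bases after its start, on either strand. CCAATCA stood 51 to 65 bases before the start in all 6 genes, and TATANA 28 to 43 bases before it. Neither *H1f0* nor *H1fx* held any of the 3 words in this window around its RefSeq start. For *H1f0* that window, chr15:79027962-79028261, ended before the GENCODE vM21 start at 79028450, so the bases just before that start were not searched. The RefSeq start of *H1fx* lies 155 bases inside its GENCODE vM21 transcript. Among all 32851 RefSeq promoters of this length, 7.18% held the H1 box on either strand, 7.82% held CCAATCA, 24.7% held TATANA, and 0.158% (52 promoters) held all 3, a set that includes 5 of the 8 H1 genes. The RefSeq start of *Hist1h1d* lies 1770 bases inside the 7425-base transcript of the deposited tables, which also runs 4884 bases past the hairpin. That length lowers the TPM of *Hist1h1d*, because TPM divides by it.

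The 3′ hairpin is shown because it is the end known for replication-dependent histone mRNAs, although *Hist1h1t* was found to hold it too. It was searched after the stop codon as 16 bases, with a stem of 6 base pairs that begins with GG and a loop of 4 bases that begins with TT. Capitals mark stem and loop.
Hist1h1c, hairpin letters at chr13:23739512-23739527, plus strand: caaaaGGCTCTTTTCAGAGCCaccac
Hist1h1d, hairpin letters at chr13:23555787-23555802, plus strand: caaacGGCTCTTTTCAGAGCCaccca
Hist1h1e, hairpin letters at chr13:23621782-23621797, minus strand: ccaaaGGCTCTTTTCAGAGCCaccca
Hist1h1t, hairpin letters at chr13:23696525-23696540, plus strand: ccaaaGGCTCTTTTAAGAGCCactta
Hist1h1a, annotated end, hairpin letters at chr13:23764392-23764406, plus strand: ccaacGGCTCTTTTCAGAGC

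The 3 replication-dependent genes with a full match had the same stem and loop, and *Hist1h1t* had the same stem around another loop. The annotated *Hist1h1a* transcript stops after 15 of the 16 bases, and the annotated *Hist1h1b* transcript ends with its stop codon, so the search could find no full hairpin in either. No hairpin was found in *H1f0* or *H1fx*. The *H1f0* transcript is 2055 bases long in GENCODE vM21, which was searched, and 2287 bases in the deposited tables, which set its TPM, so its coordinates and the search may not cover all of the measured transcript. Anywhere in an annotated transcript, such a hairpin occurred in 40 of 61 core histone cluster genes (65.6%) and in 83 of 21842 other genes (0.38%). As annotated, *Hist1h1c*, *Hist1h1d*, *Hist1h1e* and *Hist1h1t* all extend past the hairpin, by 840, 4884, 1153 and 185 bases.

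The coding sequences limit how well the genes can be told apart. *Hist1h1c*, *Hist1h1d* and *Hist1h1e* shared 80.6% to 83.9% of aligned coding bases, and the 5 replication-dependent genes shared at least 68.7%, whereas *Hist1h1t* shared at most 63.1% with any other H1 gene. *H1f0* and *H1fx* shared at most 55.5% and 52.2%. Of the 31-base words in the transcript, 19.6% recurred in other genes for *Hist1h1e*, 11.4% for *Hist1h1c*, 3.93% for *Hist1h1b*, 3.38% for *Hist1h1d* and 0.281% for *Hist1h1a*. No word of *Hist1h1t*, *H1f0* or *H1fx* recurred among the transcripts of the deposited tables. *H1fx* overlaps the gene *Gm47286* on the same strand, and transcripts outside those tables were not searched. *Hist1h1e* also overlaps the core histone gene *Hist1h2be* on the same strand, and 179 of its words are shared with it. The estimated counts of *Hist1h1a*, *Hist1h1t*, *H1f0* and *H1fx* were whole numbers in 7 of 7 libraries (within 1e-09), those of *Hist1h1b* in 4, and those of *Hist1h1c*, *Hist1h1d* and *Hist1h1e* in 0. The last 3 therefore rest on reads divided by estimation and are uncertain gene by gene.

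Libraries held 12537852 to 20552702 estimated counts. *Meioc*, the targeted gene, averaged 626 ± 110 CPM in wild type (SD, n = 4) against 370 ± 61.9 CPM in the null (SD, n = 3), and the groups did not overlap, which is in the direction of the labels. Transcripts of the gene remained in the null libraries. Wild-type replicate 1 stood apart for the histone genes: its summed CPM of the 5 replication-dependent H1 genes was 3501, whereas wild-type replicates 2 to 4 had 6488 to 7122 and the null libraries 1754 to 3234. The same library was the lowest wild-type library for the summed core histone genes, at 6238 CPM against 12993 to 15028, and for the S phase list, at 3189 against 4115 to 4255. Fold changes of the H1 genes and counts of calls in the gene lists are therefore given with and without it, whereas those of single genes outside the H1 family include it.

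The question was whether loss of MEIOC, a protein needed for germ cells to leave mitosis and enter meiosis on time, goes along with other levels of H1 mRNA. By the quasi-likelihood test of edgeR, adjusted by Benjamini-Hochberg over all 13630 genes, 5 of the 8 H1 genes were higher in wild type at an adjusted p under 0.05: *Hist1h1a*, *Hist1h1c*, *Hist1h1d* and *Hist1h1e* of the replication-dependent class, and *H1fx*. Of the 8, 0 were called lower in wild type by edgeR or DESeq2, and 0 were lower at an unadjusted p under 0.05. *Hist1h1b*, *Hist1h1t* and *H1f0* did not pass. Without wild-type replicate 1 or null replicate 1, 6 H1 genes were called higher, without null replicate 2 it was 2, without wild-type replicate 4 it was 3, and without wild-type replicate 2, wild-type replicate 3 or null replicate 3 it was 1. Calls over all genes moved too: 1059 were higher with all libraries, 1440 without wild-type replicate 1 and 1275 without null replicate 1. The count was 296 without null replicate 2 and 430 without wild-type replicate 4. It was 254, 237 and 113 without wild-type replicate 2, wild-type replicate 3 and null replicate 3. Counts of calls in the gene lists below come from these same fits. The share of all genes at an unadjusted p under 0.05 was not counted in any fit. List counts at that p therefore cannot be set against a general rate. Of all genes tested, 11.1% were called, 7.77% as higher and 3.33% as lower in wild type, so that 70% of all calls were higher (47.5% without scaling and 17.4% with limma on log2(TPM + 1), a scale that lowers the median of all genes to -0.23), and the median log2 fold change was -0.0065. The called H1 genes differed by 1.75- to 2.62-fold. The RNA came from whole testes, so fewer cells of a type and less RNA per cell cannot be told apart.

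**Figure D1:**
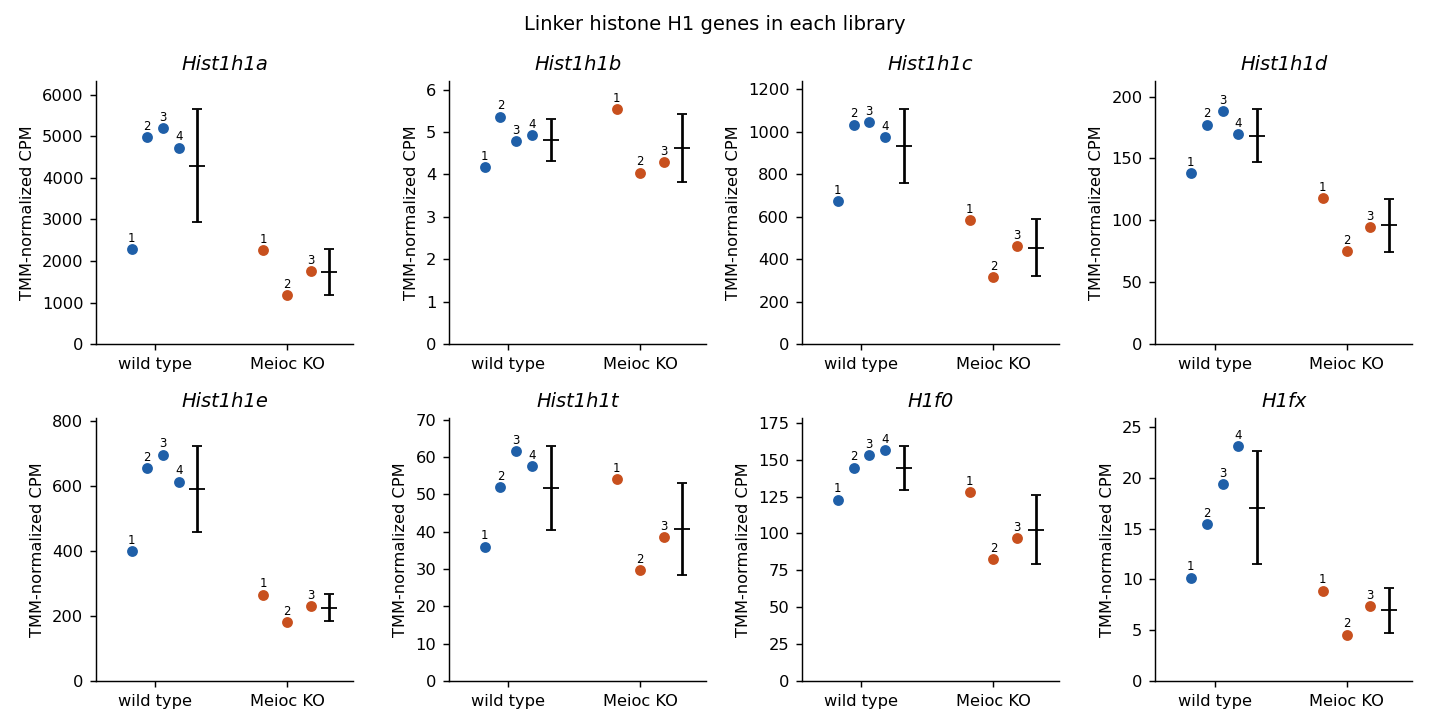
TMM-normalized CPM (vertical axes from 0) of each H1 gene in the 4 wild-type (blue) and 3 *Meioc*-null (orange) libraries, numbered by replicate; the horizontal mark and bar are the mean ± SD. Wild-type replicate 1 is the lowest wild-type library in all 8 panels, and null replicate 1 the highest null library in all 8.

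*Hist1h1a* is the H1 subtype best known from spermatogonia and early spermatocytes. Its level, in TMM-normalized counts scaled to library size (CPM), was 2283, 4974, 5189 and 4727 CPM in wild-type replicates 1 to 4 and 2262, 1179 and 1763 CPM in null replicates 1 to 3. Replicates 2 to 4 of wild type were far above the null, whereas wild-type replicate 1 was level with null replicate 1, so the groups were separated by a narrow margin only. The log2 fold change was 1.31 (SE 0.29, adjusted p = 0.0238 from edgeR). It was 1.52 without wild-type replicate 1 (adjusted p = 0.00218) and 1.55 without null replicate 1 (adjusted p = 0.0224). Without any single one of the other 5 libraries the adjusted p lay between 0.0558 and 0.0833, and the call was lost. In TPM, wild-type replicate 1 (9753) fell below null replicate 1 (10171), so that the groups overlapped on that scale.

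*Hist1h1e*, a main H1 of somatic tissues, gave the H1 call with the lowest p. It was at 400 CPM in wild-type replicate 1 and at 655, 697 and 613 CPM in replicates 2 to 4, against 265, 181 and 231 CPM in the null. Every wild-type library was above every null library, replicate 1 included. The log2 fold change was 1.39 (SE 0.19, adjusted p = 0.00706 from edgeR), or 2.62-fold with a 95% interval of 1.94 to 3.54. Without each library in turn it ranged from 1.25 to 1.54, with adjusted p from 0.000422 to 0.0433. It was the only H1 gene called in all 7 of these fits.

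*Hist1h1c* is likewise found in most somatic cells. It was at 674, 1033, 1043 and 974 CPM in wild type, against 583, 315 and 462 CPM in the null. The groups did not overlap, but wild-type replicate 1 was closer to the nearest null library than to the nearest wild-type library. This gave a log2 fold change of 1.04 (SE 0.21, adjusted p = 0.0191 from edgeR). It was 1.16 without wild-type replicate 1 (adjusted p = 0.00517). Leaving out wild-type replicate 2, wild-type replicate 3, null replicate 2 or null replicate 3 ended the call, with adjusted p from 0.0516 to 0.0722.

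*Hist1h1d*, another subtype of dividing and somatic cells, had a smaller fitted change. It was at 138, 177, 188 and 169 CPM in wild type, against 118, 75.1 and 94.8 CPM in the null, with no overlap. Its log2 fold change was 0.81 (SE 0.16, adjusted p = 0.0175 from edgeR). It was 0.89 without wild-type replicate 1 (adjusted p = 0.00604), and the call was lost without wild-type replicate 2, wild-type replicate 3 or null replicate 3, with adjusted p from 0.0527 to 0.0709.

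*Hist1h1b*, which is expressed in dividing cells, was near the bottom of the range. It was at 4.18, 5.37, 4.78 and 4.93 CPM in wild type, against 5.54, 4.05 and 4.28 CPM in the null, so the highest and the lowest library were both from the null. Fitted over all libraries, the log2 fold change was 0.056 (SE 0.18, adjusted p = 0.857 from edgeR), with a 95% interval from -0.34 to 0.46. It was 0.11 without wild-type replicate 1 (adjusted p = 0.705). The 95% interval lies below the fitted value of each called H1 gene. The sign depended on the scale: in TPM the null, at 15.4 to 19.4, was above wild type, at 13.5 to 15.1, in every library. The limma fit on log2(TPM + 1) gave -0.25, close to the shift of all genes on that scale.

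When the counts of the 5 replication-dependent genes were summed into a single feature, so that the division of reads among them no longer mattered, the log2 fold change was 1.25 (SE 0.26), and it was 1.44 (SE 0.19) without wild-type replicate 1. The sum does not remove the division of reads with genes outside the 5, such as *Hist1h2be*, which shares 179 words with *Hist1h1e*. The fitted values of the single genes had a median of 1.04.

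*Hist1h1t* encodes the H1 of spermatocytes, and its promoter and hairpin resemble those of the replication-dependent genes. Its level was 36.0, 51.8, 61.6 and 57.6 CPM in wild type, against 54.0, 29.6 and 38.6 CPM in the null. Wild-type replicate 1 was below 2 of the 3 null libraries, and the groups overlapped. A log2 fold change of 0.34 was fitted (SE 0.22, adjusted p = 0.315 from edgeR), with a 95% interval from -0.14 to 0.83. It was 0.48 without wild-type replicate 1 (adjusted p = 0.12) and 0.60 without null replicate 1 (adjusted p = 0.0855). No single omitted library brought *Hist1h1t* past the threshold.

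*H1f0* is the replacement H1 of slowly dividing and differentiated cells. It was at 123, 145, 153 and 157 CPM in wild type, against 128, 82.4 and 96.9 CPM in the null. The groups overlapped only through wild-type replicate 1 and null replicate 1. With all libraries the log2 fold change was 0.49 (SE 0.15, adjusted p = 0.0593 from edgeR), with a 95% interval from 0.16 to 0.82. It passed without wild-type replicate 1 (0.56, adjusted p = 0.0346), without null replicate 1 (0.69, adjusted p = 0.0156) and with DESeq2 (0.48, adjusted p = 0.0154).

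*H1fx* encodes H1X, a divergent subtype that is made in many tissues and is not tied to replication. It was at 10.2, 15.5, 19.4 and 23.1 CPM in wild type, against 8.89, 4.55 and 7.38 CPM in the null. All wild-type libraries were above the null, with wild-type replicate 1 close to null replicate 1. The log2 fold change was 1.29 (SE 0.29, adjusted p = 0.0255 from edgeR), similar in size to that of *Hist1h1a* at a far lower level. It was 1.47 without wild-type replicate 1 (adjusted p = 0.00581) and 1.51 without null replicate 1 (adjusted p = 0.0267), and it missed the threshold without each of the other 5 libraries, with adjusted p from 0.0605 to 0.0832.

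In CPM, the 5 called H1 genes were also the 5 whose wild-type libraries all lay above all null libraries. Over all genes tested, 15.4% showed that order and 10.8% the opposite.

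**Figure D2:**
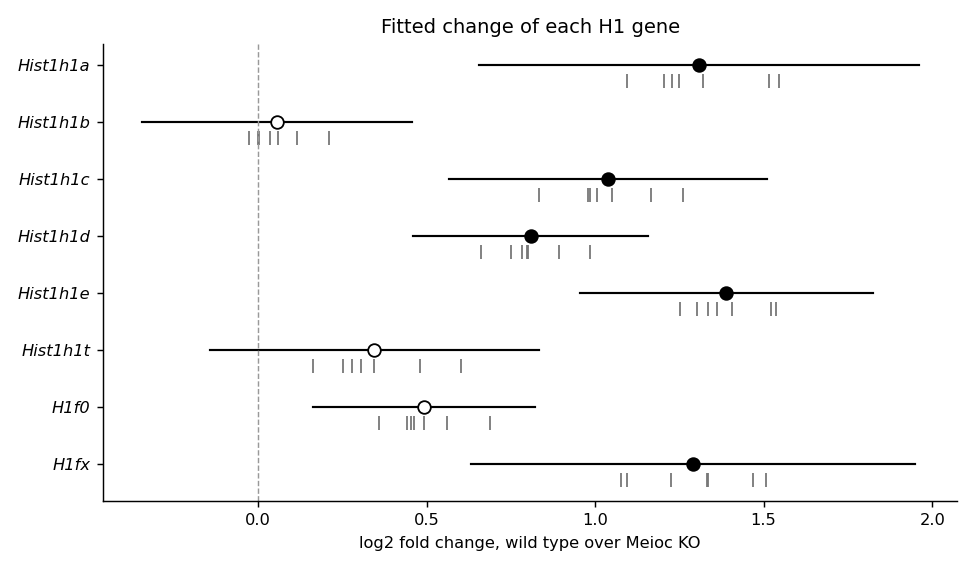
Log2 fold change of each H1 gene, wild type over *Meioc*-null, on the horizontal axis with its 95% interval from edgeR; filled points passed an adjusted p of 0.05, open points did not, and grey ticks are the values without each of the 7 libraries. *Hist1h1e* sits at 1.39 and *Hist1h1b* at 0.056, the only gene whose ticks fall on both sides of 0.

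**Figure D3:**
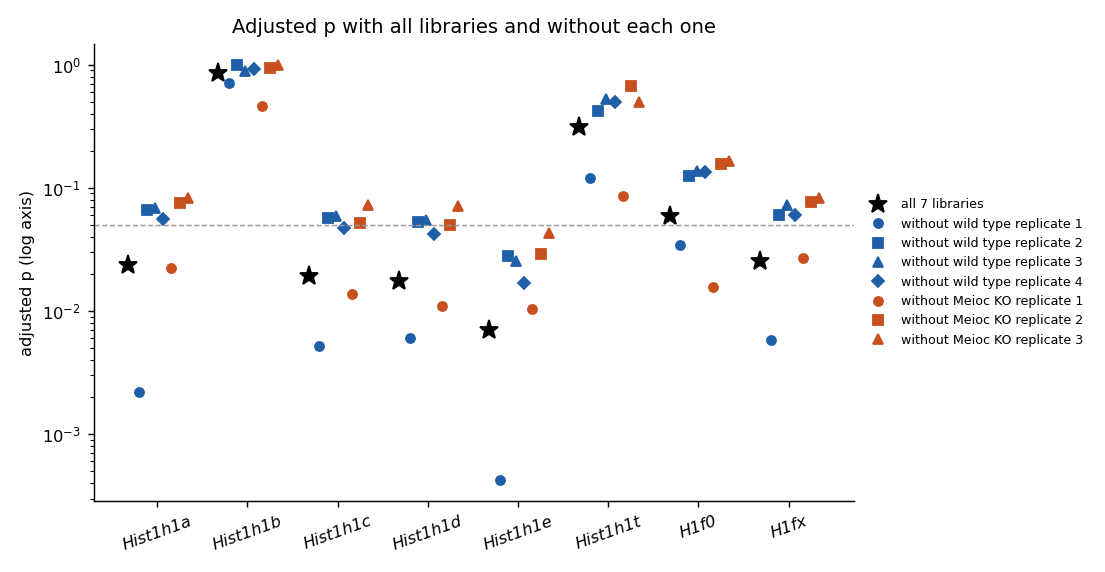
Adjusted p of each H1 gene (log axis) with all 7 libraries (star) and without each library (blue, a wild-type library left out; orange, a null library left out), with the threshold of 0.05 as a dashed line. All points of *Hist1h1e* lie under the line, and those of *Hist1h1b* and *Hist1h1t* all lie above it.

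Levels of different genes were compared per length, in TPM. *Hist1h1a* stood far above the others, at 17244 ± 5027 TPM in wild type (SD, n = 4) and 8030 ± 2077 TPM in the null (SD, n = 3). It alone held 0.975% to 2.04% of the TPM of a wild-type library and 0.602% to 1.02% of that of a null library. In wild type it was followed by *Hist1h1c* at 799 ± 114 TPM, *Hist1h1e* at 543 ± 98.2 and *Hist1h1t* at 115 ± 19.9. Below these were *H1f0* at 80.4 ± 5.64 TPM, *Hist1h1d* at 40.6 ± 3.27, *H1fx* at 16.2 ± 4.81 and *Hist1h1b* at 14.3 ± 0.643 (SD, n = 4). Every step in this order was free of overlap between libraries except the last, from *H1fx* to *Hist1h1b*.

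The null had the same order down to *Hist1h1d*. *Hist1h1c* was at 452 ± 114 TPM, *Hist1h1e* at 246 ± 31.9, *Hist1h1t* at 107 ± 27.1, *H1f0* at 67.9 ± 13.0 and *Hist1h1d* at 27.4 ± 4.90 (SD, n = 3). The last 2 places were exchanged, with *Hist1h1b* at 17.3 ± 2.03 TPM above *H1fx* at 7.51 ± 2.04, without overlap. The place of *Hist1h1d* rests on its long annotated transcript.

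The 8 genes together made up 1.10% of the TPM in wild-type replicate 1, 2.07% to 2.22% in wild-type replicates 2 to 4 and 0.678% to 1.13% in the null libraries. The groups overlapped in this total only in that wild-type replicate 1 was below null replicate 1. As a share of counts, at 0.372% and 0.356% in these 2 libraries, they did not overlap. Within the total, *Hist1h1a* held 88.6% to 92.0% in wild type and 88.8% to 90.0% in the null, which overlap. *Hist1h1t* held 0.522% to 0.802% in wild type and 1.10% to 1.28% in the null. *H1f0* held 0.358% to 0.677% in wild type and 0.690% to 0.886% in the null. *Hist1h1b* held 0.0631% to 0.128% against 0.172% to 0.250%. For these 3 genes, the ones that did not pass the test of abundance, each null library had a larger share than each wild-type library. Without wild-type replicate 1 the wild-type shares of *Hist1h1a* were 91.9% to 92.0%, above all null libraries. Shares add up to a fixed total and are not independent of one another. *Hist1h1a* holds most of that total, so a gene that is lowered less than *Hist1h1a* in the null gains share there. The larger null shares of the 3 genes therefore restate their smaller fitted changes.

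**Figure D4:**
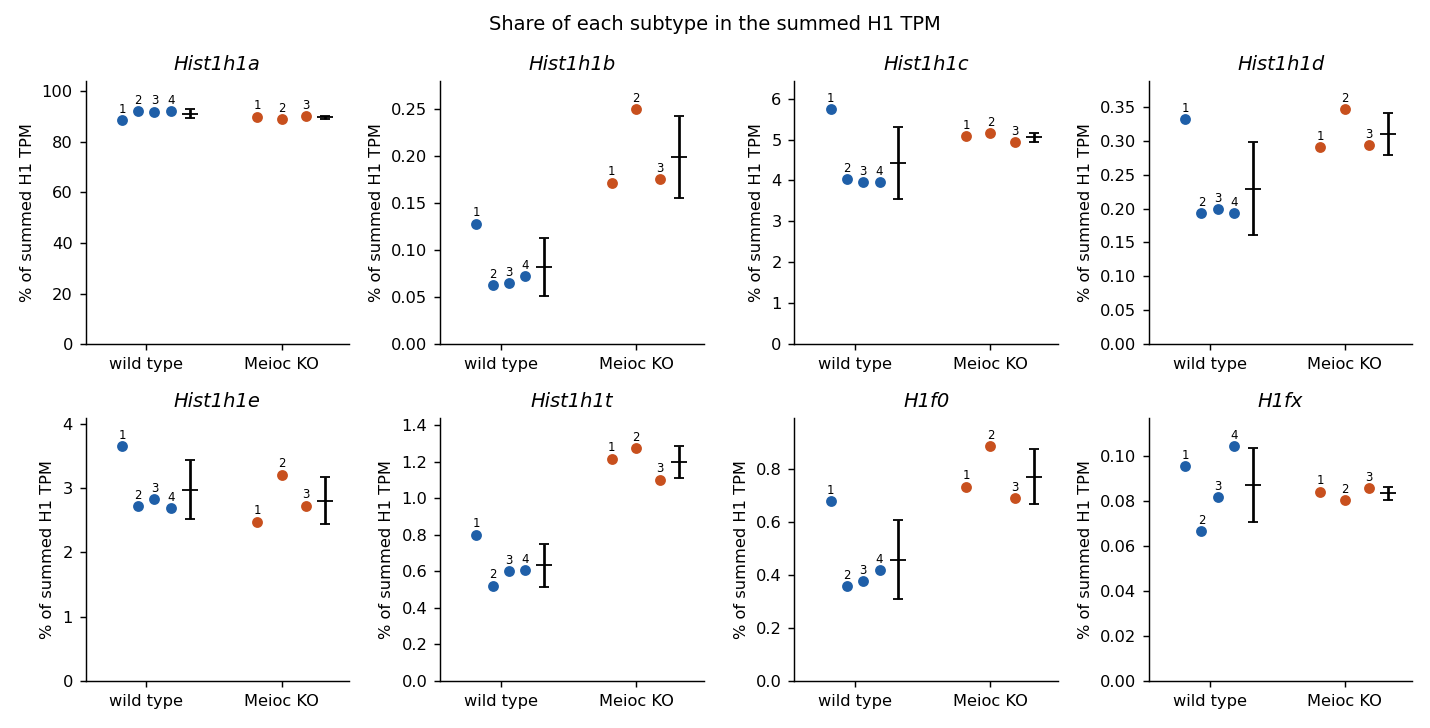
Share of the summed H1 TPM (percent, vertical axes from 0) held by each H1 gene in every library, numbered by replicate, with the mean ± SD. *Hist1h1a* holds 88.6% to 92.0% throughout, and the null libraries lie above all wild-type libraries for *Hist1h1t*, *H1f0* and *Hist1h1b*.

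Some ratios between members did not overlap between the genotypes either. The CPM of *Hist1h1e* was 2.90, 3.70, 3.70 and 3.62 times that of *Hist1h1d* in wild-type replicates 1 to 4 and 2.25, 2.41 and 2.44 times in the null, with no overlap. These counts are each gene's own and are not divided by length. The TPM of *Hist1h1c* over that of *Hist1h1e* was 1.40 to 1.57 in wild type and 1.60 to 2.05 in the null, again with no overlap. *Hist1h1c*, *Hist1h1d* and *Hist1h1e* share words, and the division of their reads was not tested as a source of these ratios. *Hist1h1a* over *Hist1h1b* was 690 to 1460 in wild type and 356 to 524 in the null, in TPM. The CPM of *Hist1h1a* over that of *Hist1h1c* did overlap, at 3.39 to 4.97 in wild type and 3.74 to 3.88 in the null. Ratios of the other pairs were not computed, nor how often such ratios separate over all genes.

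Within each genotype the members varied together. Over the 7 libraries, after the group mean of log2(CPM + 1) was taken off, Pearson's r between pairs of H1 genes ran from 0.69 (*Hist1h1b* with *H1fx*) to 0.99 (*Hist1h1a* with *Hist1h1e*). The points share their libraries and the scaling of each library, and wild-type replicate 1 and null replicate 1 are the lowest wild-type and the highest null library for all 8 genes. By the same measure, among 10236 other genes that averaged 10 CPM or more, the genes most like the summed replication-dependent H1 genes were *Dnajc9* (r = 0.996), *Hist1h4d*, *Ywhaq*, *Rnf4* and *Hist1h2aa* (r = 0.992). Those most like *Hist1h1t* were *Chaf1b* (r = 0.996), *Kpna6* and *4933416C03Rik*. *H1f0* was closest to *Cdc42* (r = 0.997), *Gins2* and *Tmem126a*, and *H1fx* to *Prelid3b* (r = 0.998), *Pbk* and *Pet100*. With 7 libraries and so many candidates, values of this size describe these libraries only.

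Other linker histones were at or near 0. *Hils1* and *H1fnt*, the H1 variants of spermatids, had 0 counts in all libraries, which at 3 counts allows up to 0.151 to 0.236 CPM per library, and *H1foo*, the oocyte variant, had 1 count in wild-type replicate 4 and 1 in null replicate 3. These limits cover counting error only.

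Core histones, which form the particle that H1 closes, were called higher in wild type more often than lower, as the H1 genes were. Of 59 core histone cluster genes tested, 30 were higher and 3 lower in wild type. Their median log2 fold change was 1.15 (1.34 without wild-type replicate 1). Setting the 3 genes at 0 throughout a genotype at their bound could not move this median, because each stays on its side of it. At an unadjusted p under 0.05, 6 were lower, and the count called lower was 1 without wild-type replicate 2, wild-type replicate 3 or null replicate 3, 2 without null replicate 1 or 2, 3 without wild-type replicate 1 and 4 without wild-type replicate 4. *Hist2h3c2*, an H3 gene, was at 49.0, 351, 361 and 215 CPM in wild type, against 36.6, 14.4 and 11.5 CPM in the null (log2 fold change 3.54, SE 0.67, adjusted p = 0.0174 from edgeR). Most other H3 genes went the other way. The fitted log2 values of *Hist1h3a* to *Hist1h3h* were all below 0, from -0.11 (*Hist1h3f*) to -1.14 (*Hist1h3g*). Of these, only *Hist1h3c* and *Hist1h3g* were called. *Hist1h3i* (0.42), *Hist2h3b* and *Hist2h3c1* were fitted above 0 but not called. *Hist1h2ba* and *Hist2h2aa1* were listed at 0 in all null libraries, and *Hist1h2ba* also in wild-type replicate 4 while at 538 to 1570 CPM in the others, so single genes of this near-identical family are uncertain. The 3 lower genes were *Hist1h3g* (log2 fold change -1.14), *Hist1h3c* (-0.82) and *Hist1h4n*, which was at 0 in wild type and 0.213 to 0.289 CPM in the null, near the 3-count limit. In TPM, the replication-dependent H1 genes stood at 0.159 to 0.177 of the core histone sum in wild type and 0.184 to 0.200 in the null, without overlap. Without wild-type replicate 1, 37 core histone genes were called higher. Without wild-type replicate 2, wild-type replicate 3, wild-type replicate 4, null replicate 2 or null replicate 3 it was 9, 8, 17, 4 and 0. In the fits without wild-type replicates 2 or 3 or null replicates 2 or 3, 36 to 37 had an unadjusted p under 0.05. How many of all genes had such a p was not counted.

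Among the genes that make and process histone mRNA, 4 of 16 were higher in wild type and 0 lower, and the median of the 16 was 0.070 on the log2 scale. The 3 with the largest change were *Slbp*, the hairpin binding protein, at 223 ± 47.1 against 131 ± 13.9 CPM (0.77), *Npat*, the coactivator of histone genes in S phase, at 301 ± 53.0 against 190 ± 7.99 CPM (0.66), and *Casp8ap2*, a histone locus body protein, at 337 ± 34.4 against 225 ± 22.1 CPM (0.58; SD, n = 4 and n = 3). Of 5 H1 chaperones, 2 were higher and 0 lower. These were *Nasp*, which binds H1 and H3, with a log2 fold change of 0.77, and *Ptma*, an H1-binding acidic protein, with 0.59. Of 8 HMG proteins tested, which compete with H1 for nucleosomes, 3 were higher and 0 lower: *Hmgb2* (0.66), *Hmgn2* (0.47) and *Hmgb1* (0.37). DESeq2 called 4, 2 and 4 genes of these 3 lists higher and 0 lower, where over all genes tested it called 1456 higher and 875 lower. At an unadjusted p under 0.05 edgeR had 0, 1 and 2 lower. Without wild-type replicate 1, 4, 2 and 4 were higher and 0, 0 and 1 lower, whereas without wild-type replicate 2, wild-type replicate 3, null replicate 2 or null replicate 3 it was 1, 0 and 0 higher, and without wild-type replicate 4 it was 2, 1 and 0.

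The S phase list had 20 of 40 genes higher in wild type and 0 lower; its median log2 fold change was 0.42, and 0.47 without wild-type replicate 1. Its most changed genes were *Rrm2*, a subunit of ribonucleotide reductase (1.33, adjusted p = 0.0115 from edgeR), *Ccne2*, cyclin E2 (1.31, adjusted p = 0.018), and *Prim1*, a primase subunit (1.21, adjusted p = 0.0198). The summed CPM of the list was 3189 to 4255 in wild type and 2351 to 2921 in the null. By edgeR 0 genes of the list were lower at an unadjusted p under 0.05. By DESeq2 24 were higher and 0 lower, beside 1456 higher and 875 lower over all genes tested. Without wild-type replicate 1, 24 were higher, and without wild-type replicate 2, wild-type replicate 3, wild-type replicate 4, null replicate 2 or null replicate 3 the count was 6, 6, 13, 6 and 0. In the fits without wild-type replicates 2 or 3 or null replicates 2 or 3, 23 to 26 had an unadjusted p under 0.05, again with no count over all genes. The part of the S phase list in the H1 differences was not tested.

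**Figure D5:**
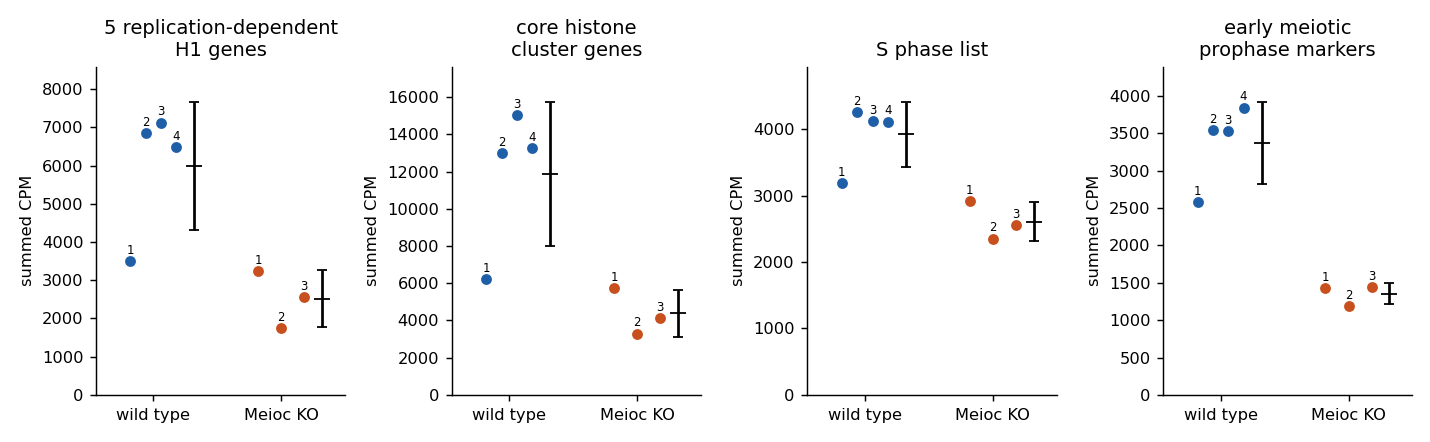
Summed TMM-normalized CPM (vertical axes from 0) of the 5 replication-dependent H1 genes, the core histone cluster genes, the S phase list and the early meiotic prophase markers in each library, numbered by replicate, with the mean ± SD. Wild-type replicate 1 is the lowest wild-type library in all 4 panels, at 3501 CPM for H1 and 2575 for the meiotic markers.

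Markers of the germ cell stages also moved with genotype. Early meiotic prophase markers were higher in wild type in 10 of 12 genes and lower in 0, with summed CPM of 2575 to 3843 against 1192 to 1444, and 7 to 10 of the 12 were called when single libraries were left out. Undifferentiated spermatogonial markers were lower in wild type in 3 of 8 tested and higher in 0, with sums of 208 to 255 against 315 to 488 CPM. DESeq2 called 5 of these lower and 0 higher, and edgeR had 0 higher at an unadjusted p under 0.05. The count lower was 5 without wild-type replicate 1, 2 without null replicate 2, and 1 without wild-type replicate 2, 3 or 4 or null replicate 3. Differentiating spermatogonial markers were higher in 1 of 6, with sums of 784 to 943 against 555 to 678 CPM, and in 2 without wild-type replicate 1 but in 0 without wild-type replicate 2 or 3 or null replicate 2 or 3. Of 14 markers of pachytene and later cells, 3 passed the filter, and *Prm1*, *Prm2* and *Tnp2*, which define spermatids, were at 0 in all libraries. Of the 3, 1 was called higher by edgeR, 2 by DESeq2 and 2 without wild-type replicate 1. Without any one of the other 6 libraries it was 0. The remaining marker, *Piwil1*, went the other way, at 2.31 to 4.26 CPM in wild type and 4.28 to 6.86 in the null. Its fitted log2 value was -0.70 (SE 0.26), which edgeR did not call (adjusted p = 0.106). At an unadjusted p under 0.05, edgeR had 2 of the 3 higher and 1 lower. Few markers of somatic and blood cells were called. Sertoli sums were 5103 to 5198 in wild type and 5131 to 5818 CPM in the null with 1 of 9 markers lower in wild type, peritubular myoid sums 534 to 613 and 507 to 591 CPM with 1 of 5 lower, and 0 Leydig, endothelial, macrophage or red blood cell markers were called by edgeR, where 1, 1, 1 and 2 had an unadjusted p under 0.05 and DESeq2 called 1, 0, 0 and 1. Without null replicate 1, edgeR called 2 Sertoli, 1 Leydig and 3 red blood cell markers higher and 2 Sertoli markers and 1 endothelial marker lower, and without wild-type replicate 1 it called 1 Sertoli marker lower and 0 of the other somatic markers. Their sums overlapped between genotypes, at 266 to 553 and 313 to 627 CPM for Leydig cells, 68.2 to 85.1 and 73.5 to 90.7 for endothelial cells, 302 to 324 and 280 to 350 for macrophages, and 363 to 694 and 274 to 503 for red blood cells. The 5 red blood cell markers had fitted values above 0 in 5 of 5, with a median log2 fold change of 0.57, larger than that of the S phase list. The part of red blood cells in the H1 differences was not tested. The germ cell stages differed between genotypes together with H1, and their part in the H1 differences was not tested.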

How the data were processed

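Bulk RNA-seq of 4 wild-type and 3 *Meioc*-null pups was used, with genotype and replicate taken from the labels. The authors trimmed reads with cutadapt 1.8, ran kallisto 0.44.0 (strand-specific, bias-corrected) against GENCODE Basic vM15, and kept protein-coding ones. The deposited estimated counts are not normalized across libraries, and the authors rescaled the deposited TPM over protein-coding transcripts. The authors' table also gives transcript lengths.

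Transcripts were matched by Ensembl identifier to GENCODE vM21 (43020 of 43139; the 119 others held 0.247% to 0.282% of counts and were left out), summed by gene and rounded. The 13630 genes that reached a TPM of 1 in 3 or more of the 7 samples were tested with edgeR 4.0.16 (TMM, quasi-likelihood, no covariates, Benjamini-Hochberg) in R 4.3.3 with calls made below an adjusted p of 0.05. Changes are given as wild type relative to null, standard errors were derived from the F statistic, and CPM are TMM-normalized. Depth was 12537852 to 20552702 estimated counts per library. Each library came from a single pup and counted as a sample. No 2 libraries of a genotype agreed within counting noise (chi-square per gene 7.95 to 27.6). The p-values measure the spread between pups, which includes any differences in staging and preparation. The fits were tested on simulated data.

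The members, gene lists and tests were chosen with earlier results of these data known. Named genes were all 8 members, *Meioc*, *Piwil1* and up to 3 called genes each way of largest change per pathway list. The genes of most similar pattern were also named (5 for the summed replication-dependent genes and 3 each for *Hist1h1t*, *H1f0* and *H1fx*). Alternatives were DESeq2 1.42.0, other normalizations and filters, limma 3.58.1 on log2(TPM), trends with length or GC removed, a replicate block and leaving out each library. Promoter sequences are from RefSeq, and all 8 members matched; protein sequences were not used here.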

Additional observations from a re-analysis of the deposited data

Results flagged for a closer look

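Wild-type replicate 1 stood apart from the other 3 wild-type libraries in 13 of 36 H1 quantities examined by Dixon's test on the 4 wild-type libraries; chance flags about 1 in 20 such groups, and these quantities share genes and are not independent. In all 13 the library apart was wild-type replicate 1. It was low in *Hist1h1a* (2283 CPM and 9753 TPM), in the summed replication-dependent H1 genes (10838 TPM) and in all 8 genes together (11012 TPM). All 8 genes held 1.10% and *Hist1h1a* 0.975% of its TPM. Within the H1 total, its share of *Hist1h1a* was low (88.6%), and its shares of *Hist1h1b* (0.128%), *Hist1h1c* (5.74%), *Hist1h1d* (0.332%) and *Hist1h1e* (3.66%) were high. The ratios of *Hist1h1a* over *Hist1h1c* (3.39) and of *Hist1h1e* over *Hist1h1d* (2.90), in CPM, were low as well. This library was also the shallowest, at 12537852 estimated counts, and lowest among the wild type in the S phase list (3189 CPM) and the early meiotic markers (2575 CPM). The part of depth or of germ cell stage in its H1 levels was not tested.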

How the results depend on the processing

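Under the 10 settings other than leaving out a library, 70 of 80 values of the H1 genes kept their direction and their side of the threshold. *Hist1h1e* was called in all 10, and *Hist1h1t* in none. *H1f0* passed with DESeq2 (0.48) and with the length trend removed (0.47). *Hist1h1b* changed sign without scaling (-0.024), with the length trend removed (-0.088), on log2(TPM + 1) (-0.25), on log2(TPM + 0.1) (-0.26) and without null replicate 2 (-0.027); its adjusted p was at least 0.128 in the 10 settings, and the cause was not tested. On TPM the median of all genes shifted to -0.23 and -0.25.

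Samples with the same replicate number showed no positive correlation (r of deviations -0.057, -0.10 and -0.23 for numbers 1 to 3). So few values cannot settle whether equal numbers share a batch or litter, and the labels do not say. With the replicate block, 1 of 8 H1 genes was called (*Hist1h1e*), and 94 genes in all were higher and 15 lower; *Hist1h1a* (1.23), *Hist1h1c* (1.03), *Hist1h1d* (0.82) and *H1fx* (1.11) kept their direction but were not called. That fit spends degrees of freedom on the replicate numbers.

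Without each library in turn, 1 to 6 H1 genes were called higher and 0 lower, and 113 to 1440 genes in all were higher and 18 to 837 lower. The fold changes ranged over 1.09 to 1.55 (*Hist1h1a*), -0.027 to 0.21 (*Hist1h1b*), 0.83 to 1.26 (*Hist1h1c*), 0.66 to 0.99 (*Hist1h1d*), 1.25 to 1.54 (*Hist1h1e*), 0.16 to 0.60 (*Hist1h1t*), 0.36 to 0.69 (*H1f0*) and 1.08 to 1.51 (*H1fx*).

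Of all genes, 875 were called lower with DESeq2, 899 without scaling, 2082 on log2(TPM + 1) and 2063 on log2(TPM + 0.1), where 440 and 443 were higher.

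As shares of counts and not of TPM, which do not correct for length, all H1 genes held 0.603% in wild type and 0.275% in the null. Within H1, *Hist1h1a* then held 68.4% and 64.8%, *Hist1h1t* 0.852% and 1.53%, and *H1f0* 2.45% and 3.91%. Without *Hist1h1t* in the total, *Hist1h1a* held 90.7% in the null. Depth was sufficient for all 8 members: the lowest, *Hist1h1b*, was at 4.05 CPM, above the 3-count limit of 0.151 to 0.236 CPM.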
